A study of Mus musculus with 20 samples.

Results

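The genotype effect that saline-treated and Ang II-treated mice had in common was examined in all 20 of the 20 abdominal aortas of the series. Each gene was fitted with treatment and genotype as additive terms, and a gene was called shared when its genotype term passed a Benjamini-Hochberg adjusted p of 0.05 and Plod1-/- and WT aortas also differed in the same direction, each at an unadjusted p under 0.05, within the saline pair and within the Ang II pair of groups. Of 13263 genes tested, 173 met this rule. *Plod1* encodes lysyl hydroxylase 1 (LH1), an enzyme of the endoplasmic reticulum.

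The 4 groups held 5 mice each: saline-treated WT, saline-treated Plod1-/-, Ang II-treated WT and Ang II-treated Plod1-/-. All were labelled as C57BL/6 mice aged 6 months, while the methods of the study give the strain as C57Bl/6NCrl and a younger age at pump implantation. They were infused for 14 days with saline or with 1000 ng/kg of Ang II per minute, and the same methods describe male littermates from crosses of heterozygous parents. The knockout was global, so every cell type of the aortic wall and of the tissue around it lacked LH1 from conception. The aortas were bulk tissue, in which fewer cells of a type and less RNA per cell cannot be told apart.

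LH1 adds hydroxyl groups to lysines in the helical part of procollagen before the chains leave the endoplasmic reticulum, and those residues later form the stable cross-links of collagen fibrils and carry sugar residues. The aortic adventitia, rich in fibrillar collagen, is made by fibroblasts that also secrete small proteoglycans, fibulins and complement components. Ang II raises blood pressure and drives remodelling and immune cell entry into this wall.

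The libraries held between 24.7 and 29.8 M fragments, estimated from the FPKM steps, and a value near 1 FPKM rested on a median of 106 fragments. Mitochondrial genes took between 8.37% and 29.1% of the FPKM sum. This share was 8.37% to 14.6% in saline-treated WT and 9.93% to 16.2% in saline-treated Plod1-/- mice. Under Ang II it was 14.6% to 29.1% in WT and 9.23% to 21.1% in Plod1-/- mice, with the 21.1% in replicate 1. Each library was scaled to its own total, so this share bears on the values of all other genes. Saline-treated Plod1-/- replicate 5 and Ang II-treated Plod1-/- replicate 1 held *Xist* RNA, the transcript of the inactive X chromosome, at 15.1 and 7.93 FPKM, against at most 0.0328 FPKM in the other 18 libraries. The Y-linked gene *Ddx3y* was at 0.0961 and 1.25 FPKM in those libraries and between 7.34 and 14.0 FPKM in the others, so both went against the description of male mice. The smooth muscle gene *Acta2* was between 1900 and 17700 FPKM in all 20 libraries. Ang II-treated Plod1-/- replicate 1, a library with *Xist* RNA, held 14500 FPKM of it, against 1900 to 5460 FPKM in the rest of its group.

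*Plod1* itself was the clearest member of the shared set and checks the genotype labels. Its FPKM in saline-treated WT mice was 26.1, 26.2, 27.9, 22.9 and 26.5, and under Ang II in WT mice 29.7, 23.1, 22.8, 24.4 and 25. The knockout libraries held 0.0311, 0.0299, 0, 0.0415 and 0 FPKM under saline and 0.0284, 0, 0, 0 and 0 FPKM under Ang II, which corresponded to 0 to 8 fragments. All 10 Plod1-/- libraries lay below all 10 WT libraries. The additive difference was -4.70 on the log2(FPKM + 1) scale (SE 0.06, limma adjusted p = 7.83e-23), with -4.72 under saline and -4.69 under Ang II.

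Across the 13263 genes, 266 (2.01%) passed the adjusted p of the genotype term, 217 (1.64%) higher and 49 lower in Plod1-/- mice. The shared rule kept 173 genes (1.3%), 136 higher (1.03%) and 37 lower (0.279%). Of the 266, 59 also differed by more than 1 on the log2(FPKM + 1) scale and are called DEGs here (0.445%), 52 higher and 7 lower, and 34 of these 59 were shared. The other 93 of the 266 genes missed the rule because the saline comparison alone failed in 76, the Ang II comparison alone failed in 16 and the directions differed in 1. The split into higher and lower genes moved with the scaling of the libraries. Quantile normalization gave 111 higher and 76 lower shared genes, and removing each library's trend with GC content gave 86 higher and 94 lower. With mitochondrial genes left out of the scaling, 99 higher and 35 lower genes were shared. In a stricter form, the larger of the p-values within the treatments was itself adjusted over all genes. Genes with opposed directions were given the highest possible p there. *Plod1* was then the only gene under 0.05, while 278 genes with matching directions had an unadjusted value under 0.05. Without the pair of libraries that held *Xist* RNA, 322 genes met the shared rule, and 144 of the 173 were among them. The additive differences were then 3.69 for *Arg1*, 0.87 for *Smad7*, -1.23 for *Pi16* and -1.43 for *C7*, and no gene with an additive difference printed below changed direction. Since strand was not kept, the 26 shared genes that overlap an expressed gene on the opposite strand are less certain in value, among those named below *Col5a1*, *Col4a2*, *C7*, *B4galt2*, *Ttc7*, *Fbxl14*, *Uaca*, *Pfkp* and *Zhx3*.

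The shared genes were a small part of what differed between the genotypes. At an unadjusted p under 0.05, 3455 genes (26%) differed between genotypes under saline and 5575 (42%) under Ang II, in comparisons that had no mouse in common; adjusted, these were 741 (5.59%) and 3901 (29.4%). Of the 1619 genes past that threshold in both, 278 (17.2%) had matching directions and 1341 (82.8%) opposed ones. In 893 of the latter the gene was lower in Plod1-/- mice under saline and higher under Ang II, and in 448 the reverse held. Over all genes tested, whatever their p, 4623 (34.9%) had the same sign in both treatments. The plot of the differences in each treatment shows most genes along the falling diagonal, with the shared genes in the corners off it.

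**Figure D1:**
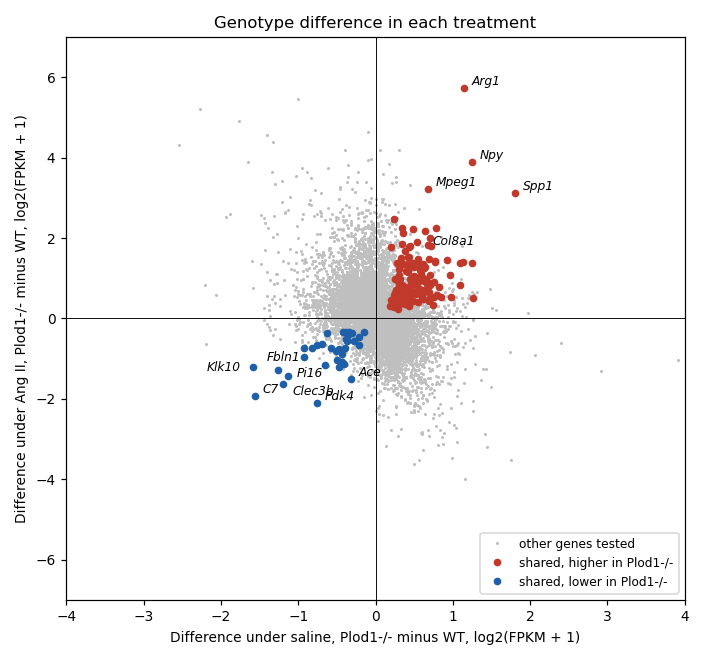
Each point is a gene, placed by its Plod1-/- minus WT difference in log2(FPKM + 1) under saline (horizontal axis) and under Ang II (vertical axis), with the 136 shared higher genes in red, 36 of the 37 shared lower genes in blue and the other genes tested in grey; *Plod1*, at -4.72 and -4.69, lies outside the plotted range. Shared genes fill the upper right and lower left corners, and most other genes with large differences lie in the other corners.

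Among the 37 lower genes, several of the largest decreases were in secreted proteins that connective tissue fibroblasts are known to make. *Fbln1* encodes fibulin 1, a glycoprotein of elastic fibres and basement membranes. Its FPKM was 164, 109, 114, 133 and 95.2 in saline-treated WT mice and 57.4, 71.8, 38.2, 30.3 and 65.6 in saline-treated Plod1-/- mice. Under Ang II it was 62.6, 83.1, 70.2, 93.3 and 79.8 in WT and 30.5, 28.5, 30.2, 22.8 and 47.9 in Plod1-/- mice. The genotypes did not overlap in either treatment. The additive difference was -1.27 (SE 0.157, limma adjusted p = 0.000657), and the differences under saline and under Ang II were -1.26 and -1.28, with an interaction of -0.03 (95% interval -0.69 to 0.63).

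*Pi16* encodes peptidase inhibitor 16, a marker of adventitial fibroblasts in many tissues. It was at 195, 121, 138, 179 and 132 FPKM in saline-treated WT mice and at 88.8, 109, 69.2, 35.6 and 60.6 FPKM in saline-treated Plod1-/- mice. Ang II-treated WT mice had 110, 127, 112, 156 and 108 FPKM and Ang II-treated Plod1-/- mice 37.7, 59.2, 52.0, 29.9 and 49.4 FPKM. Again every Plod1-/- value lay below every WT value of the same treatment, and the additive difference was -1.28 (SE 0.173, limma adjusted p = 0.00165).

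*C7*, which encodes a component of the membrane attack complex of complement, had the largest decrease after *Plod1*. It was at 173, 105, 161, 148 and 121 FPKM in saline-treated WT mice and at 78.3, 103, 42.0, 37.1 and 16.8 FPKM in saline-treated Plod1-/- mice. Under Ang II the values were 99.2, 49.1, 69.9, 118 and 48.7 FPKM in WT and 7.99, 39.9, 13.4, 15.9 and 29.3 FPKM in Plod1-/- mice. Replicate 2 of each Plod1-/- group came nearest to WT, without overlap. The additive difference was -1.74 (SE 0.301, limma adjusted p = 0.0106). *C7* overlaps *Gm25652* on the opposite strand and the libraries did not keep strand, so its value is less certain than those of *Fbln1* and *Pi16*.

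*Clec3b* (tetranectin, a plasminogen-binding protein) and *Igfbp6* (a binding protein for insulin-like growth factor 2) were also lower. *Clec3b* was between 157 and 380 FPKM in saline-treated WT mice and between 73.3 and 184 FPKM in saline-treated Plod1-/- mice, which overlapped. Under Ang II, *Clec3b* was between 65.1 and 219 FPKM in WT and between 24.2 and 64.6 FPKM in Plod1-/- mice, without overlap, and the additive difference was -1.41 (SE 0.239, limma adjusted p = 0.0106). *Igfbp6* was between 193 and 268 FPKM in saline-treated WT against 83.3 to 174 FPKM in saline-treated Plod1-/- mice, and between 126 and 169 FPKM against 68.3 to 118 FPKM under Ang II. Its differences of -0.82 and -0.73 in the respective treatments were close to each other (interaction 0.09, 95% interval -0.46 to 0.64), and its additive difference was -0.77 (SE 0.132, limma adjusted p = 0.0106).

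**Figure D2:**
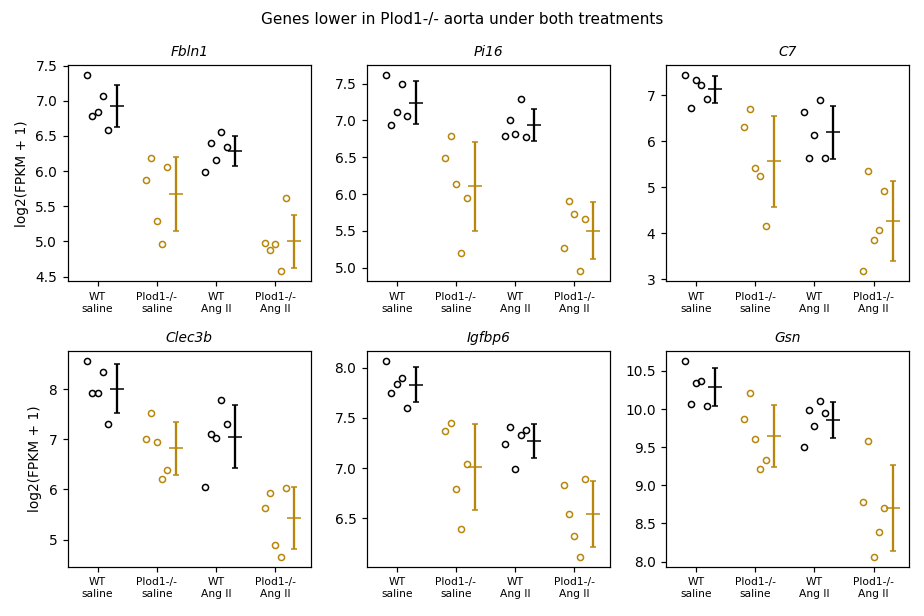
Each panel gives 1 gene in log2(FPKM + 1), with an open circle for each of the 5 mice of a group and a bar for the mean ± SD beside them. *Fbln1*, *Pi16*, *C7* and *Igfbp6* have every Plod1-/- mouse below every WT mouse of the same treatment, while *Clec3b* and *Gsn* overlap under saline or under both.

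The promoters of *Fbln1* and *C7* are shown as examples of genes lower in both treatments. They are 300-base windows from 250 bases before to 50 after the start site, from RefSeq on build GRCm38.p6, at chr15:85205699-85205998 on the plus strand and chr15:5063724-5064023 on the minus strand, written 5′ to 3′. Capitals mark the E-box CAGCTG, which reads the same on both strands. Of other lower genes, *Pi16* also had CAGCTG in its window, while *Igfbp6* and *Col6a6* did not. The start site of the *Pi16* window lay 1202 bases from the 5′ end of the gene in GENCODE, against 0 for *Fbln1* and 33 for *C7*. It is therefore less certain as the promoter of that gene.
Fbln1: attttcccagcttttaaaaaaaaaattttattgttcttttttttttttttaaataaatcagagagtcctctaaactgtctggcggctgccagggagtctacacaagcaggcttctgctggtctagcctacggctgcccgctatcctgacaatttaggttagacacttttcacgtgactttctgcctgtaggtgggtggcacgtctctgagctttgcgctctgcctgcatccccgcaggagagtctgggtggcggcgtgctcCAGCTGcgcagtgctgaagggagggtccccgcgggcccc
C7: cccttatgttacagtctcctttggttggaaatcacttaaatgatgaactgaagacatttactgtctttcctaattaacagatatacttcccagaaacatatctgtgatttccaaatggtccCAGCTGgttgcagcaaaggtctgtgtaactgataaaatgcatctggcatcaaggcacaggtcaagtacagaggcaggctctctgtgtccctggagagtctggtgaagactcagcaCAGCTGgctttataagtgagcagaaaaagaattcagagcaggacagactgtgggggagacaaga
A promoter sequence was matched for 9387 of the 13263 genes tested and 135 of the 173 shared genes. CAGCTG was in 7 of 28 promoters of lower genes (25%), in 23 of 107 promoters of higher genes (21.5%) and in 15.1% of all 9387. The AP-1 motif TGANTCA was in 1 of 28 (3.57%) and 8 of 107 (7.48%), against 4.76% of all. No test was made of these shares, and a match is a description of letters in the window only.

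Other lower members act in the extracellular space as well. *Dcn*, the small proteoglycan decorin that binds collagen fibrils, differed by -0.70 (SE 0.169, limma adjusted p = 0.0375), with -0.75 under saline and -0.65 under Ang II. Its values overlapped in both treatments: 198 to 304 FPKM in WT against 103 to 226 FPKM in Plod1-/- mice under saline, and 175 to 263 FPKM against 94.1 to 224 FPKM under Ang II. *Dcn* was the only shared gene of 15 tested in the list of fibril-associated proteins. The list medians were -0.134 under saline and -0.275 under Ang II. *Gsn*, whose product gelsolin severs actin filaments in cells and in plasma, was lower by 0.90 in size (additive difference -0.90, limma adjusted p = 0.0174) and was the most abundant of these genes, with 1050 to 1590 FPKM in saline-treated WT mice. *Serping1*, the inhibitor of complement C1, differed by -0.62, *Gpc3*, a cell-surface heparan sulphate proteoglycan encoded on the X chromosome, by -0.75 and *Col6a6*, a chain of microfibrillar collagen VI, by -0.66, with limma adjusted p-values of 0.0411, 0.0407 and 0.014. These last 3, with *Igfbp6*, were chosen after their values were seen.

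*Pdk4*, the kinase that shuts pyruvate dehydrogenase, was between 41.1 and 86.9 FPKM in saline-treated WT and between 20.7 and 78.4 FPKM in saline-treated Plod1-/- mice. Under Ang II it was at 207, 205, 230, 76.1 and 229 FPKM in WT and at 28.9, 83.7, 21.2, 35.0 and 59.0 FPKM in Plod1-/- mice, and the WT mouse at 76.1 FPKM overlapped the other group. Its differences were -0.76 and -2.10. Under Ang II the brown adipocyte markers also summed to less in Plod1-/- mice, at 183 to 620 FPKM against 680 to 5340 FPKM in WT. Under saline they summed to 44.5 to 1590 FPKM against 58.1 to 484 FPKM. The median difference of the 7 markers tested was 0.87 under saline and -3.16 under Ang II, and 0 of 7 passed the additive test. With the mean of the brown and white adipocyte markers as a covariate, the additive difference of *Pdk4* was -1.28 (limma adjusted p = 0.0102), and 23 of the 37 lower and 109 of the 136 higher genes met the shared rule. *Klk10*, a kallikrein-related serine protease, differed by -1.59 under saline and -1.20 under Ang II. *Ace*, which converts angiotensin I to Ang II, differed by -0.31 under saline and -1.50 under Ang II, and this inequality passed the interaction test (interaction -1.19, limma adjusted p = 0.00876). *Entpd2*, an ectonucleotidase, had an additive difference of -0.82 (limma adjusted p = 0.0436). The noncoding genes *Gm25809*, a small nucleolar RNA, and *Gm830* differed by -0.94 and -0.85.

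The list of fibroblast markers did not share this direction. Of 8 fibroblast markers tested, *Pi16* alone was shared and 4 had the same sign in both treatments, against 34.9% of all genes tested. The median difference was -0.57 under saline and 0.183 under Ang II. *Pdgfra*, a defining receptor of fibroblasts, was between 7.55 and 9.28 FPKM in saline-treated WT and between 4.41 and 6.61 FPKM in saline-treated Plod1-/- mice, but between 4.02 and 9.46 FPKM and between 4.37 and 14.5 FPKM in the Ang II-treated groups. The 8 markers summed to 654 to 1050 FPKM in saline-treated WT and 378 to 718 FPKM in saline-treated Plod1-/- mice, and to 518 to 931 FPKM and 840 to 3930 FPKM under Ang II. None of the markers was at 0 in all libraries. The part of cell composition in the lower genes was not tested.

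*Arg1*, the arginase of alternatively activated macrophages, had the largest additive difference of the 136 higher genes. It was at 0.146, 0.0829, 0.0496, 0.134 and 0 FPKM in saline-treated WT mice and at 1.51, 2.63, 1.76, 0.503 and 1.09 FPKM in saline-treated Plod1-/- mice. Under Ang II it was at 6.78, 0.127, 0.0517, 0.297 and 0.236 FPKM in WT and at 25.3, 150, 167, 340 and 27.1 FPKM in Plod1-/- mice. The groups did not overlap in either treatment, and Ang II-treated WT replicate 1 stood far above its group. The additive difference was 3.44 (SE 0.668, limma adjusted p = 0.0168), made up of 1.15 under saline and 5.74 under Ang II, and the interaction of 4.59 passed its test (limma adjusted p = 0.000787). Most WT values were below 1 FPKM in both treatments, where log2(FPKM + 1) understates differences. The sizes of these differences and of the interaction therefore depend on the added 1.

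*Spp1* encodes osteopontin, a secreted phosphoprotein of macrophages and matrix. It was at 1.14, 2.62, 2.28, 4.18 and 2.74 FPKM in saline-treated WT and at 4.11, 13.7, 7.26, 18.5 and 20.5 FPKM in saline-treated Plod1-/- mice. In the Ang II-treated groups it was at 282, 18, 10.2, 9.37 and 30.2 FPKM in WT and at 79.6, 91.2, 570, 828 and 275 FPKM in Plod1-/- mice. A WT mouse in each treatment, at 4.18 and 282 FPKM, made the groups overlap, and the additive difference was 2.47 (SE 0.556, limma adjusted p = 0.0292). *Npy*, the vasoconstrictor neuropeptide Y, had differences of 1.25 and 3.89, and *Mpeg1*, the macrophage pore-forming protein perforin-2, of 0.68 and 3.23. Their limma adjusted p-values in the additive fit were 0.0379 and 0.0487, the latter just inside the rule. *Mpeg1* overlapped between genotypes in both treatments and *Npy* under Ang II. In 20 fits without 1 mouse, *Npy* met the rule in 9 and *Mpeg1* in 6.

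The list of macrophage markers did not share this direction. None of its 10 genes had the same sign in both treatments, against 34.9% of all genes tested, and none passed the additive test. The median difference was -0.24 under saline and 2.14 under Ang II. *Cd68* was between 11.8 and 20.6 FPKM in saline-treated WT and between 3.96 and 15 FPKM in saline-treated Plod1-/- mice, and *Adgre1*, which encodes the macrophage antigen F4/80, between 2.11 and 4.71 FPKM and between 1.16 and 3.8 FPKM. Under Ang II, *Cd68* was between 11.8 and 110 FPKM in WT and between 55.2 and 362 FPKM in Plod1-/- mice. The 10 markers summed to 206 to 380 FPKM in saline-treated WT, 93.5 to 385 FPKM in saline-treated Plod1-/-, 313 to 1810 FPKM in Ang II-treated WT and 874 to 4800 FPKM in Ang II-treated Plod1-/- mice. The 5 genes with the largest increase that passed the additive test and missed the shared rule, several of them genes of myeloid cells, failed the saline comparison. *Trem2* differed by 0.21 under saline and 3.37 under Ang II, *Lgals3* by 0.37 and 2.75, *Cd52* by 0.44 and 3.32, and *Cd300c2* by 0.26 and 3.51. The imprinted transcript *H19* differed by 0.31 and 4.20.

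Of 25 collagen chain genes tested, 4 were shared higher genes and 1, *Col6a6*, was a shared lower gene, against 1.03% and 0.279% of all genes, and no test was made of these counts. *Col8a1* encodes a short-chain collagen of vessel walls and was between 1.79 and 3.86 FPKM in saline-treated WT, between 2.42 and 9.59 FPKM in saline-treated Plod1-/-, between 2.39 and 7.93 FPKM in Ang II-treated WT and between 7.71 and 68.9 FPKM in Ang II-treated Plod1-/- mice, with overlap in both treatments. Its additive difference was 1.41 (SE 0.339, limma adjusted p = 0.0379). *Col16a1*, a fibril-associated collagen, differed by 0.78 and 2.24 and *Col4a2*, of basement membranes, by 0.62 and 0.49. *Col4a2* was the only shared gene of 17 tested in the basement membrane list. *Col5a1*, which regulates the diameter of collagen I fibrils, was the only one of 7 fibrillar collagen genes to be shared. It differed by 0.34 under saline and 2.25 under Ang II, its larger within-treatment p of 0.0469 (limma) lay just inside the rule, and it met the rule in 4 of 12 other settings. *Col1a1*, *Col1a2*, *Col3a1* and *Col5a2* had differences of -0.24, -0.36, -0.30 and -0.15 under saline and of 3.41, 2.25, 3.23 and 2.52 under Ang II, and none of them passed the additive test.

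*Smad7*, the inhibitory Smad of the TGF-beta pathway, was at 6.96, 8.08, 7.4, 5.73 and 7.36 FPKM in saline-treated WT and at 11.4, 13.9, 12.5, 18.2 and 7.06 FPKM in saline-treated Plod1-/- mice. Under Ang II it was at 3.71, 5.21, 6.14, 6.75 and 3.65 FPKM in WT and at 8.92, 14.2, 8.58, 7.60 and 10.1 FPKM in Plod1-/- mice. Only saline-treated Plod1-/- replicate 5 fell among the WT values of its treatment. The additive difference was 0.77 (SE 0.141, limma adjusted p = 0.0127), and *Smad7* was the only shared gene of 17 tested in the TGF-beta list.

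*Trim8*, a ubiquitin ligase, was between 8.70 and 10.6 FPKM in saline-treated WT and between 8.32 and 11.8 FPKM in Ang II-treated WT mice. In the knockout it was between 11.8 and 18 FPKM under saline and between 15.4 and 27.8 FPKM under Ang II, so that the genotypes did not overlap within a treatment, and the additive difference was 0.80 (SE 0.112, limma adjusted p = 0.00226). *Dusp7*, a phosphatase of ERK kinases, was between 6.10 and 9.15 FPKM in saline-treated WT against 8.29 to 12.1 FPKM in saline-treated Plod1-/- mice, and between 7.22 and 8.31 FPKM against 10.6 to 15.2 FPKM under Ang II. Its additive difference was 0.61 (SE 0.0877, limma adjusted p = 0.00257). *Nfic*, a transcription factor of the nuclear factor I family, differed by 0.80 under saline and 0.59 under Ang II, *Rps6ka4*, a kinase downstream of MAP kinases, by 0.60 and 0.55, *Srf*, the serum response factor, by 0.71 and 0.52 and *Akt1* by 0.34 and 0.52. The interaction of each of these 4 had a 95% interval within 1 log2 unit of 0. *Trim8* and the other genes of this paragraph were chosen after their values were seen.

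**Figure D3:**
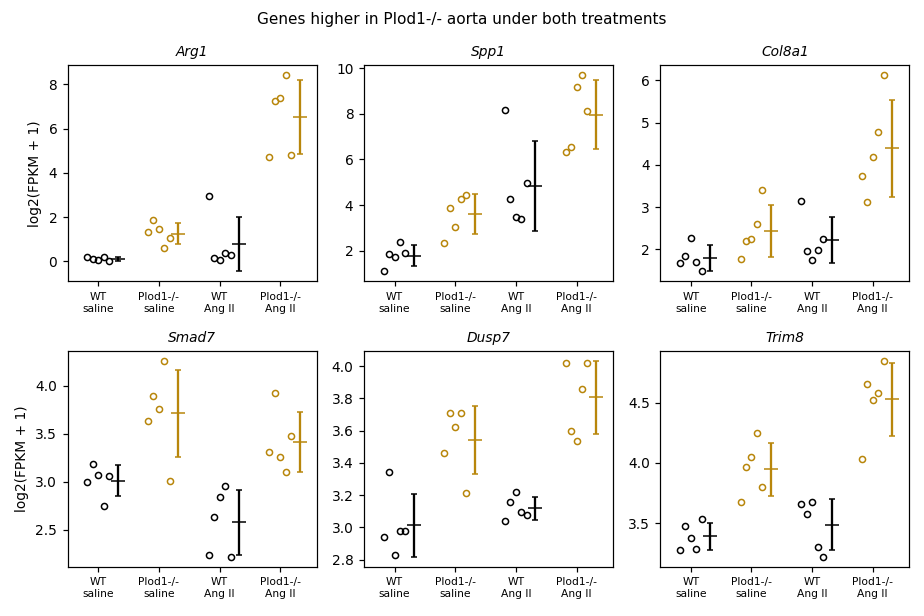
Each panel gives 1 gene in log2(FPKM + 1), with an open circle for each of the 5 mice of a group and a bar for the mean ± SD beside them. *Arg1* rises from 1.15 under saline to 5.74 under Ang II in its genotype difference, while the differences are 0.70 and 0.84 for *Smad7*, 0.53 and 0.69 for *Dusp7* and 0.56 and 1.04 for *Trim8*. Most *Arg1* values of WT mice were below 1 FPKM, where this scale understates differences.

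Other leading higher genes had varied roles. *Scarf2*, a scavenger receptor family member, differed by 1.24 and 1.38, and *Sdc3*, the heparan sulphate proteoglycan syndecan 3, by 1.13 and 1.41. *Emilin1*, a glycoprotein of elastic fibres, was between 29.5 and 40.5 FPKM in saline-treated WT and between 36.0 and 48.9 FPKM in saline-treated Plod1-/- mice, and between 23.7 and 39.2 FPKM and between 40.1 and 66.5 FPKM under Ang II. It differed by 0.34 and 0.84, while *Fbln1*, the other shared gene among 15 of the elastic fibre list, fell. *Gjb5*, a connexin, differed by 0.24 and 2.49 from a low level of at most 0.387 FPKM in saline-treated WT mice. *Rbm3-ps* is a processed pseudogene, whose reads may come from its parent *Rbm3*, and *Gm42047* is an uncharacterised gene. They differed by 1.36 and 1.35 in the additive fit.

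The differences of the shared genes were mostly larger under Ang II. The median of the 136 higher genes was 0.695 in the additive fit, 0.458 under saline and 0.862 under Ang II. Over all genes tested the respective medians were 0.047, -0.00373 and 0.11. For the 37 lower genes the medians were -0.663, -0.474 and -0.737. The difference was larger in size under Ang II in 118 of the 136 higher and 28 of the 37 lower genes. The same count was not made over all genes. Genotype differences were more frequent under Ang II in general, with 42% of all genes at an unadjusted limma p under 0.05 against 26% under saline. The larger size under Ang II is therefore not a separate trait of the set. The interaction passed an adjusted p of 0.05 in 30 of the 136 and 2 of the 37, *Ace* and *Zhx3*, against 5017 (37.8%) of all genes, a contrast that the same-direction rule itself narrows. In 69 of the 136 higher and 23 of the 37 lower genes the 95% interval of the interaction lay within 1 log2 unit of 0. The Ang II term of the same fit, which rests on the same mice, passed in 5891 (44.4%) of all genes. Of all genes tested, 21.4% passed as higher and 23% as lower under Ang II. The term passed in 83 of the 136 higher genes, with 81 higher under Ang II, and in 29 of the 37 lower genes, all 29 lower under Ang II. A gene with its extreme values in Ang II-treated Plod1-/- mice moves the genotype and Ang II terms the same way. This match of directions is therefore not a separate trait of the set.

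The ranges of the groups describe the same values that the rule used, so they add no separate support. WT and Plod1-/- mice did not overlap in 1219 genes (9.19%) under saline and in 1933 (14.6%) under Ang II. In 27 genes (0.204%) they did not overlap in either treatment and lay on the same side, 20 higher and 7 lower, and all 27 were shared. The 7 lower genes were *Plod1*, *C7*, *Pi16*, *Fbln1*, *Igfbp6*, *Uaca* and *Pfkp*. All 10 Plod1-/- libraries lay outside all 10 WT libraries in 5 genes: *Plod1*, which was lower, and *Trim8*, *Nfic*, *Tctex1d2* and *Tsc22d4*, which were higher. These genes follow from the non-overlap and were named after their values were seen.

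The higher genes had GC-rich transcripts. The median GC content of the longest transcript was 56.4% for the higher genes, with a value for 135 of 136, against 52.7% for the lower genes and 50.1% over the genes tested. Libraries also differed in how far GC-rich genes stood above GC-poor ones: the mean deviation of the quartile of genes with the highest GC content minus that of the lowest lay between -0.20 and -0.09 in saline-treated WT and between -0.08 and 0.12 in saline-treated Plod1-/- mice. It lay between -0.21 and 0.33 in Ang II-treated WT and between -0.02 and 0.05 in Ang II-treated Plod1-/- mice, where the genotypes overlapped. With this trend removed from each library, 75 of the 136 higher and 33 of the 37 lower genes still met the rule. *Arg1*, *Spp1*, *Smad7*, *Dusp7*, *Trim8*, *C7*, *Clec3b*, *Fbln1*, *Pi16*, *Igfbp6* and *Dcn* kept their direction and an adjusted p under 0.05 in the additive fit then, with *Fbln1* at -1.32 and *Trim8* at 0.64 (limma adjusted p = 0.00064 and 0.00823). Others lost the call, among them *Srf* at 0.32, *Emilin1* at 0.40, *Col4a2* at 0.38, *Col5a1* at 1.18 and *Akt1* at 0.27, with limma adjusted p-values of 0.0931, 0.0845, 0.0649, 0.0554 and 0.0527.

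**Figure D4:**
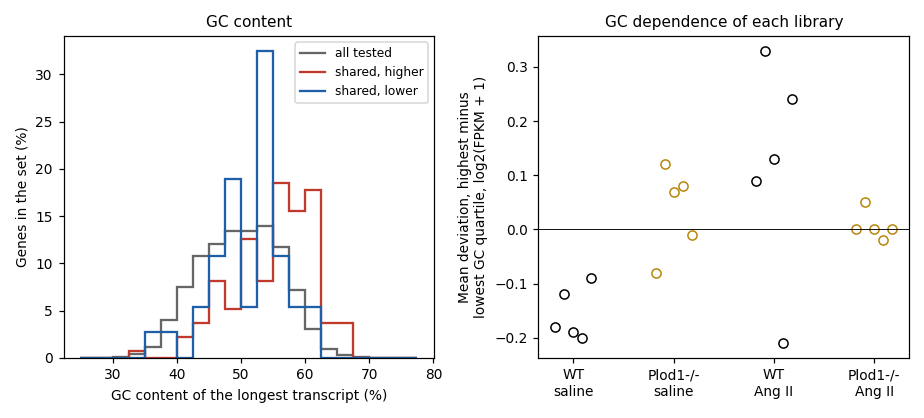
The left panel gives the share of genes (%) in bins of GC content for all genes tested and for the shared higher and lower genes, and the right panel gives for each of the 20 libraries the mean deviation in log2(FPKM + 1) of the quartile of genes richest in GC minus that of the quartile poorest in GC. The higher genes lie to the right, with a median of 56.4%, and the saline-treated WT libraries, at -0.20 to -0.09, lie below the saline-treated Plod1-/- libraries.

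Gene lists of the pathway were described by counts. The lysyl hydroxylation list had 8 genes tested, and *Plod1* was its only shared member. Its relatives *Plod2* and *Plod3* differed by -0.27 and -0.17 under saline and by 1.18 and 0.55 under Ang II, and neither passed the additive test. *P3h3* and *P3h4*, partners of LH1 in a hydroxylation complex, were higher in both treatments in value, at 0.64 and 0.42 and at 0.27 and 0.52, with limma adjusted p-values of 0.0808 and 0.0653 in the additive fit. Of 24 genes of endoplasmic reticulum chaperones and the unfolded protein response, 3 had the same sign, against 34.9% of all genes tested. Their median was -0.58 under saline and 0.552 under Ang II. *Hspa5*, the chaperone BiP, differed by -1.27 and 0.89, and *Pdia6* by -0.96 and 0.96. *Herpud1*, a factor of the degradation of misfolded proteins, was the shared exception at -0.37 and -0.56. Its limma adjusted p of 0.0493 in the additive fit lay just inside the rule. It met the rule in 4 of 20 fits without 1 mouse. Its values overlapped in both treatments. They were 77.0 to 116 FPKM in saline-treated WT against 59.3 to 86.2 FPKM in saline-treated Plod1-/- mice. Under Ang II they were 59.8 to 86.4 FPKM against 34.5 to 68.4 FPKM.

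Among lists with at least 4 genes tested, the interferon-stimulated list was the one whose genes, 11 of 11, all had the same sign, higher in both treatments, with a median of 0.209 under saline and 1.09 under Ang II. None of the 11 passed the additive test, and *Irf7*, the nearest, had a limma adjusted p of 0.0754. In 8 endothelial markers 6 had the same sign, with medians of -0.622 and -0.389 and none past the test. None of 18 immediate early genes, 7 brown adipocyte markers, 4 neutrophil markers or 5 red blood cell markers had the same sign. The share over all genes tested was 34.9%, and no test was made of these counts.

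**Figure D5:**
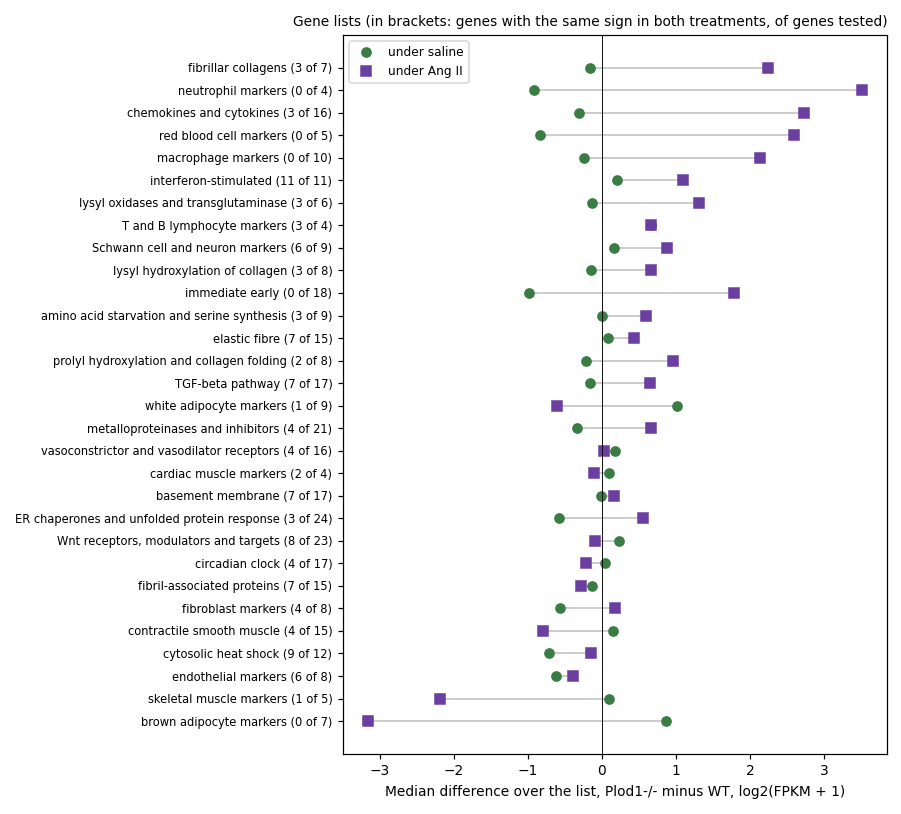
Each row is a gene list with at least 4 genes tested, with the median Plod1-/- minus WT difference in log2(FPKM + 1) under saline (circle) and under Ang II (square). Most lists have the symbols on opposite sides of 0, and the interferon-stimulated list has both on the right, at 0.209 and 1.09.

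Shared genes lay on many chromosomes. Chromosome 4, which carries *Plod1*, held 18 of them among 831 tested (2.17%), against 2.6% on chromosome 19, 2.15% on chromosome 16 and 1.3% of all genes. Within 5 Mb of *Plod1* 3 of 83 genes tested were shared (3.61%), within 10 Mb 8 of 190 (4.21%) and within 20 Mb 13 of 331 (3.93%), with *Plod1* itself left out. No test was made of these shares. Within 1 Mb of *Plod1* 27 genes were tested, and apart from *Plod1* the single shared gene there was *2510039O18Rik*, which passed in the opposite direction. It starts 4128 bases from the 5′ end of *Plod1* and runs away from it (GRCm38 chr4:147940895-147947314, plus strand). Its FPKM was 5.32, 7.34, 5.84, 6.63 and 6.66 in saline-treated WT and 7.88, 10.2, 10.9, 15.8 and 11.3 in saline-treated Plod1-/- mice. Under Ang II it was 9.35, 14.5, 11.9, 7.44 and 8.68 in WT and 16.4, 27.9, 19.1, 21.6 and 30.5 in Plod1-/- mice. The genotypes did not overlap in either treatment, and the additive difference was 0.89 (SE 0.137, limma adjusted p = 0.00544).

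The start regions of both neighbours are shown because they lie side by side at the targeted locus. They are RefSeq windows on GRCm38.p6, at chr4:147936727-147937026 on the minus strand and chr4:147940645-147940944 on the plus strand, with capitals for the GC box, searched as GGGCGG or CCGCCC to cover both strands.
Plod1: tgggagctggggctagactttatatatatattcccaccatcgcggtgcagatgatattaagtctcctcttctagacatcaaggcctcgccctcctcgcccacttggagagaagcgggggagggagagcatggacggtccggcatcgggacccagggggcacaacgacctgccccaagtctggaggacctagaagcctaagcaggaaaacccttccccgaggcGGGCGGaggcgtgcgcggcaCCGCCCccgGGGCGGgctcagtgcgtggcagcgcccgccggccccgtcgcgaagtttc
2510039O18Rik: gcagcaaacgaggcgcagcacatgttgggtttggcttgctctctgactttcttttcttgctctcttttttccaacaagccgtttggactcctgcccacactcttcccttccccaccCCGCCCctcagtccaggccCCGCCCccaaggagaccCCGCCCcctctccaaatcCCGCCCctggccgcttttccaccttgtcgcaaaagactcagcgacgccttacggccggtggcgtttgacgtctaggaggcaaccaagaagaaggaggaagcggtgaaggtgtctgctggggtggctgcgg
The window of *Plod1* held 3 matches and that of *2510039O18Rik* 4. Such a match was in 83 of 107 promoters of higher genes (77.6%), in 18 of 28 of lower genes (64.3%) and in 65.2% of all promoters of genes tested.

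The membership of the set depended on single mice. In fits without 1 mouse the number of shared genes ran from 65, without Ang II-treated Plod1-/- replicate 4, to 370, without Ang II-treated Plod1-/- replicate 1. Of the 173 genes, 52 met the rule in all 20 such fits, and 21 met it in those and in all 12 other settings. The 21 were *Plod1*, *C7*, *Clec3b*, *Col6a6*, *Fbln1*, *Igfbp6* and *Pi16*, which were lower, and *2510039O18Rik*, *Akr1b8*, *Atxn7l3*, *B4galt2*, *Dusp7*, *Fbxl14*, *Nfic*, *Rps6ka4*, *Selenoh*, *Smad7*, *Spata24*, *Srpx2*, *Trim8* and *Ttc7*, which were higher. Of these, *Selenoh*, a nuclear selenoprotein, differed by 0.55 and 1.47, *Srpx2*, a secreted sushi-repeat protein, by 0.62 and 1.35 and *Akr1b8*, an aldose reductase relative, by 0.59 and 1.12. The genes of this paragraph were picked by their results, so their stability is a description. *Rbmx2* and *Fancf*, with larger within-treatment p-values of 0.0512 and 0.0516 (limma), lay just outside the rule, and *Zhx3*, at 0.0478, just inside.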

How the data were processed

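Abdominal aortas of 20 mice were sequenced, 5 in each of 4 groups taken from the sample titles. The deposited values are FPKM of 43422 genes per mouse. The authors' methods name HISAT2, stringtie, cuffquant and cuffnorm, and the submitters' processing notes name Bowtie2 2.2.3, HISAT2 2.1.0, HTSeq 0.6.0 and build mm10. Multiplied by exon length and a library total, between 89.6% and 91.6% of the deposited FPKM values above 0 came out as whole fragments (tolerance 0.05), so each library was scaled to its own total. The libraries did not keep strand.

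Values were transformed to log2(FPKM + 1), a scale that understates changes of low genes. Genes that reached 1 FPKM in 5 or more samples were fitted with limma 3.58.1 (R 4.3.3), with eBayes and a variance trend, and p-values are two-sided with Benjamini-Hochberg adjustment over 13263 genes. The labels do not say that samples came from separate litters or days, so p-values measure the spread between these samples. Symbols, positions and transcript GC content came from GENCODE mouse release 21, and figures from matplotlib 3.10.9. The method was also run on simulated data with independent noise and only shared or Ang II-only genotype changes. The opposed genotype differences seen here were not simulated, so that run does not measure the error of the shared rule in these data.

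The members, the 35 gene lists and the tests were chosen with earlier results of these data known. Named genes were *Plod1*, the 12 shared genes that rose most and the 12 that fell most, shared members of the lists, genes of the lysyl hydroxylation, endoplasmic reticulum and fibrillar collagen lists, and the 5 genes called but not shared with the largest change in each direction. Other genes were named after their values were seen. The alternatives are given in the closing part. The fits on recovered fragments (voom) and with the GC trend removed were added after seeing the data.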

Additional observations from a re-analysis of the deposited data

Results flagged for a closer look

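A mouse stood far from the other 4 of its group in 8 of 116 groups of values, where chance alone gives about 1 group in 20. Ang II-treated WT replicate 1 was the far sample for *Arg1*, at 6.78 FPKM, and for *Rbm3-ps*, at 13.1 FPKM. Ang II-treated Plod1-/- replicate 1, a library with *Xist* RNA, was the low one for *Mpeg1*, at 6.66 FPKM, and for *Gjb5*, at 3.08 FPKM, and for *Plod1* it held 0.0284 FPKM against 0 in the other 4. In Ang II-treated Plod1-/- replicate 3, *Rbm3-ps* was apart at 14.7 FPKM. Ang II-treated WT replicate 4 was apart for *Pdk4*, at 76.1 FPKM, and for *Entpd2*, at 30.6 FPKM.

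The genotype difference under Ang II differed from that under saline in 8 of the leading genes by the interaction test of limma. Of all genes tested 37.8% passed this test, and of the shared genes 32 of 173 (18.5%). The same-direction rule itself narrows that share, so the 8 genes are a description only. The difference of the differences was 4.59 for *Arg1*, 2.55 for *Mpeg1*, 2.25 for *Gjb5*, 1.91 for *Col5a1*, 1.75 for *Rbm3-ps*, 1.53 for *Col8a1* and 1.30 for *Gm42047*, all higher in Plod1-/- mice and more so under Ang II. For *Ace* it was -1.19, with the larger decrease under Ang II.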

How the results depend on the processing

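*Plod1* kept its sign and its call in every setting, and it was the only gene past the adjusted conjunction in each fit without 1 mouse. The 59 DEGs became 122 with a pseudocount of 0.1, 8 with no filter on low values, 34 with sample weights, 225 with 4 group means in 1 fit, 222 without both libraries with *Xist* RNA, 304 from recovered fragments with voom and 266 by the adjusted p alone. The 173 shared genes became 33 with no filter, 294 with sample weights, 322 without both libraries with *Xist* RNA and 34 when a difference over 1 was also asked for. The cause was not tested. Counts stayed within 1.5 times with no variance trend (58 DEGs and 171 shared genes), mitochondrial genes left out (42 and 134) and the adipocyte mean as a covariate (59 and 176). Replicate numbers do not pair the mice: 8 of 30 same-number pairs correlated above 0.1, and 5 of 20 samples were closest to a sample of their own number. With the number as a replicate block, 17 DEGs and 62 shared genes remained, 61 of these among the 173. Higher genes made up 88.1% of the DEGs and 78.6% of the shared genes in the fit reported, against 58.8% of the DEGs with the replicate block, 73.5% with sample weights and 37.5% with no filter, and against 59.4% of the shared genes after quantile normalization and 47.8% with the GC trend removed.

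In fits without 1 mouse the DEGs ranged from 13 to 173, the shared genes from 65 to 370, the *Plod1* difference from -4.72 to -4.68, the shared genes past the interaction test from 20 to 50 and those past the Ang II test from 104 to 118. The shared genes numbered 111 and 110 without saline-treated WT replicate 3 or 5, 112, 80, 103 and 107 without Ang II-treated WT replicate 2, 3, 4 or 5, and 114 and 103 without saline-treated Plod1-/- replicate 3 or 4. They numbered 370, 104, 65 and 115 without Ang II-treated Plod1-/- replicate 1, 3, 4 or 5. The DEGs numbered 37 without saline-treated WT replicate 5, 23, 18, 18 and 21 without Ang II-treated WT replicate 2, 3, 4 or 5, 37 without saline-treated Plod1-/- replicate 4, and 173, 35, 23, 13 and 20 without Ang II-treated Plod1-/- replicate 1 to 5. Of 864 values of single named genes under the other settings, 746 stayed on their side of the threshold, 104 lost it, 14 passed it and 0 changed sign. In 1440 such values without 1 mouse, 0 changed sign and 314 lost the threshold. Values below 1 FPKM and those of short genes can rest on few fragments, as for *Gm25809*, which had at most 5 in a library. Intervals cover the spread between mice only.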

Other observations

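Further shared higher genes, singled out after their values were seen, had roles not described above. The transcription factor gene *Foxc2*, known from vessel and mesenchyme development, was between 3.49 and 4.91 FPKM in saline-treated WT and between 5.20 and 20.3 FPKM in saline-treated Plod1-/- mice, without overlap. Under Ang II it was between 3.09 and 9.27 FPKM in WT and between 9.11 and 17.4 FPKM in Plod1-/- mice, which overlapped. Its additive difference was 1.02 (limma adjusted p = 0.0164). The cell-surface proteins of mesenchymal cells *Cd248* and *Thy1* each differed by 0.78 in the additive fit, and *Furin*, a protease that activates growth factor precursors, by 0.73.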
